A study of Homo sapiens with 14 samples.

Results

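FICC-Seq and iCLIP of TRMT2A in HEK293 cells were set side by side, to ask which tRNA isoacceptors and which other RNAs hold a larger or smaller share of the crosslinks when the enzyme is trapped by its own catalysis than when it is fixed by UV light. The comparison uses 6 of the 14 libraries of the series, 3 of each method, taken by their labelled method and cell line. HEK293 is an established line derived from human embryonic kidney. For FICC-Seq, cells were grown for 24 h in 100 µM fluorouracil, a base analogue that enters RNA and holds uridine-methylating enzymes covalently on their substrate. For iCLIP, cells received UV light and no fluorouracil. Both methods used the same antibody against the endogenous enzyme, so neither a tag nor a mutant was involved. The labels call all 6 libraries untreated, which for FICC-Seq stands beside a description of fluorouracil exposure. They give the same 5′ barcode to FICC-Seq replicates 1 and 3, but the counts of these libraries differed by more than sampling noise (chi-square per degree of freedom 2.27 over 182 tRNA isoacceptors and sites, p = 8.45e-20 for these libraries). They were nevertheless the most alike of the FICC-Seq pairs, as replicate 2 gave 4.84 against replicate 1 and 6.70 against replicate 3. The paper calls its replicates biological, but nothing in the labels says that they came from separate cultures. The p-values measure the spread between libraries, part of which may be technical.

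TRMT2A is the methyltransferase that makes 5-methyluridine at position 54 of cytosolic tRNAs, in the T-loop, the 7-base loop (positions 54 to 60) near the 3′ end of the molecule. Most tRNAs begin this loop with TTC, whereas initiator methionine tRNA has A54 and therefore lacks the target base. A deposited position is the base just before the start of a cDNA. Reverse transcriptase usually stops before a base crosslinked by UV, which then is the annotated position itself, whereas a base held by catalysis is more often copied before the cDNA stops, so that a crosslink at U54 is annotated at position 53. The methyl group of 1-methyladenosine at position 58 also stops reverse transcriptase, whatever the protein is bound to. cDNAs were mapped uniquely, so tRNAs with identical copies lose reads, and levels of different tRNAs are not comparable as amounts of tRNA.

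The T-arms (positions 49 to 65, hg19) of the loci on which the differences below turn are shown 5′ to 3′, with the T-loop in capitals. The first was the highest locus of both methods, the next 3 rose and the last 3 fell in FICC-Seq.
tRNA-Leu-CAA-1-2, chr6:28908910-28908926 (+): gtgggTTCGAATcccac
tRNA-Tyr-GTA-5-4, chr14:21131359-21131375 (-): gctggTTCGATTccggc
tRNA-Lys-CTT-2-1, chr1:145395530-145395546 (-): gtgggTTCGAGCcccac
tRNA-Ile-AAT-3-1, chr6:27242998-27243014 (-): gcgggTTCGATCcccgt
tRNA-iMet-CAT-1-1, chr1:153643773-153643789 (+): gatggATCGAAAccatc
tRNA-Gln-CTG-1-4, chr15:66161408-66161424 (-): ccgagTTCAAATctcgg
tRNA-Cys-GCA-2-4, chr17:37310752-37310768 (-): cccggTTCAAATccggg

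The FICC-Seq libraries held 23721, 15982 and 28429 cDNA counts and the iCLIP libraries 17432, 7987 and 7002. A count of 0 allows up to 0.0106% to 0.0188% of a FICC-Seq library and up to 0.0172% to 0.0428% of an iCLIP library, from a limit of 3 counts that covers counting error only. Of the positions of a library, between 53.1% and 55.7% held a single cDNA in FICC-Seq and between 73.2% and 78.2% in iCLIP. A pair of libraries stood apart in some features. In iCLIP replicate 1, 52 of 342 sites outside the tRNA clusters had over 5 times the share of both other iCLIP libraries, and FICC-Seq replicate 2 had over 5 times both other FICC-Seq libraries for 4 isoacceptors. Isoacceptor calls lost without either of these libraries are given, as are the numbers of sites called lower without them. Classes of sites are given with all libraries only.

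tRNA took a larger share of the crosslinks in FICC-Seq than in iCLIP, and the highest loci took less of it. Counts within 100 nt of the listed tRNA clusters made up 82.6%, 85.6% and 82.7% of the FICC-Seq libraries and 45.1%, 61.3% and 54.9% of the iCLIP libraries. The means were 83.6% ± 1.73 and 53.8% ± 8.16 (SD, n = 3), a difference of 29.9 percentage points. All FICC-Seq libraries lay above all iCLIP libraries, which in an exact two-sided permutation test of 3 against 3 gives p = 0.1, the smallest it can give (0.1 also after adjustment over the 2 such tests). Without positions of a single count the difference was 15.7 points. The 10 highest loci took 30.7%, 26.7% and 32.2% of the tRNA counts in FICC-Seq against 54.2%, 43.1% and 43.0% in iCLIP, again without overlap (difference -16.9 points, exact p = 0.1).

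Among the isoacceptors (tRNAs grouped by amino acid and anticodon), the shares moved in both directions. Of 47 isoacceptors with an anticodon, 46 had at least 10 counts, and 20 of these rose in FICC-Seq, 9 fell and 17 did not pass the test. A change was called at an adjusted p under 0.05 in limma, fitted over all 390 isoacceptors and sites and adjusted over them by the Benjamini-Hochberg method. Among all of them 25.6% of the features were called higher and 22.3% lower, against 20 and 9 of 46 here. In all 29 called isoacceptors the 3 libraries of one method lay on the same side of the other 3. Log2 fold changes are FICC-Seq over iCLIP on shares of the library with their standard error (SE), with an offset of 0.5 counts scaled to the library. As each value is a share, an isoacceptor can rise because others fall. The listed tRNA clusters were kept by the study for their counts in several experiments of this series. A tRNA counted in iCLIP alone could be left out, so the balance of rises and falls depends on that list.

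The largest rises were in tRNAs for lysine, alanine, glutamate, tyrosine and isoleucine. Lys-CTT, one of the lysine isoacceptors, held 7.90%, 7.75% and 7.99% of the FICC-Seq counts and 1.17%, 1.88% and 1.91% of the iCLIP counts (log2 fold change 2.40 ± 0.19 SE, limma adjusted p = 0.000662). Tyr-GTA, whose genes carry introns, held 10.7%, 10.2% and 12.4% against 1.54%, 3.32% and 4.03% (2.24 ± 0.30). By its mean it was the second isoacceptor of FICC-Seq after Leu-CAA, and in FICC-Seq replicate 3 it was the first, whereas in each iCLIP library Leu-CAG was higher than Tyr-GTA. Ala-CGC held 2.91%, 3.20% and 3.56% against 0.516%, 0.839% and 0.614% (2.38 ± 0.25). Glu-CTC held 2.67%, 2.65% and 2.41% against 0.361%, 0.876% and 0.571% (2.29 ± 0.30). Ile-AAT held 4.87%, 4.71% and 4.44% against 0.947%, 1.39% and 1.41% (1.997 ± 0.19). In each of these 5 all FICC-Seq libraries lay above all iCLIP libraries, which was a condition for naming them. A further 6 clusters that the study lists as tRNA without a name rose together (0.447%, 0.307% and 0.369% against 0.149%, 0.138% and 0.0143%, 2.24 ± 0.70), a call that was lost without FICC-Seq replicate 1 (limma adjusted p = 0.0882), 2 (0.0674) or 3 (0.0824). By amino acid, all measured isoacceptors of glycine (3 of 3), glutamate (2 of 2) and isoleucine (2 of 2) rose, and 2 of 3 for alanine. Of these, Gly-TCC lost its limma call without FICC-Seq replicate 1 (adjusted p = 0.0698), 2 (0.0678) or 3 (0.0767), or without iCLIP replicate 1 (0.0951) or 3 (0.0554), and Gly-CCC without FICC-Seq replicate 1 (0.0562) or iCLIP replicate 1 (0.0842). Without iCLIP replicate 1 the limma calls of Ala-TGC (adjusted p = 0.0716) and Ile-TAT (0.0600) were also lost, as was that of Ser-AGA (0.05003). Val-TAC (1.21 ± 0.42) lost its call without any 1 of the libraries other than iCLIP replicate 3.

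The falls were led by initiator methionine tRNA, the tRNA that starts translation and the one with A54. iMet-CAT had 0 counts in all FICC-Seq libraries and 332, 244 and 214 in iCLIP, which was at least 553-fold lower in FICC-Seq, taking 3 counts over the 68132 counts of the 3 FICC-Seq libraries as the limit of a count of 0 (limma adjusted p = 0.000662). The same limit, or 3 of the 32421 counts of the iCLIP libraries, is used for all such bounds. The elongator Met-CAT, which has T54 and brings methionine into growing chains, rose from 2.29%, 2.64% and 2.06% to 4.38%, 3.93% and 3.67% (0.77 ± 0.16).

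The other falls were in tRNAs that do have T54. Gln-CTG, a glutamine tRNA, had 1, 2 and 1 counts in FICC-Seq and 52, 29 and 27 in iCLIP (-5.32 ± 0.47, limma adjusted p = 0.000662). Pro-TGG, a proline tRNA, had 0, 0 and 1 against 8, 10 and 3, a ratio of 44.1 with a 95% exact counting interval of 7.10 to 1825. Gln-TTG had 0, 12 and 0 against 23, 23 and 16 (-4.96 ± 1.04, limma adjusted p = 0.00916), a call lost without FICC-Seq replicate 1 (adjusted p = 0.0786) or 3 (0.0807). All of these were below every iCLIP library, a condition for naming them, though Gln-TTG had counts in 1 FICC-Seq library only, replicate 2. Arg-ACG had 0, 3 and 1 against 9, 9 and 2 (-3.20 ± 0.83) and Thr-CGT, a threonine tRNA, 11, 13 and 10 against 25, 45 and 28 (-2.43 ± 0.69). With limma, Arg-ACG lost its call without FICC-Seq replicate 1 (adjusted p = 0.0987), FICC-Seq replicate 3 (0.0722) or iCLIP replicate 2 (0.0545), and Thr-CGT without FICC-Seq replicate 1 (0.0798), 2 (0.0596) or 3 (0.0980) or iCLIP replicate 2 (0.0519). The remaining calls were Pro-AGG, Thr-TGT and Leu-CAA. Both glutamine isoacceptors, 2 of 3 for proline and 2 of 3 for threonine fell. Pro-AGG and Thr-TGT each lost their call without FICC-Seq replicate 1 or 3 or without iCLIP replicate 2 or 3, and Thr-TGT also without iCLIP replicate 1. The number of isoacceptors called lower was 4 in place of 9 without FICC-Seq replicate 1 or 3, and 5 without iCLIP replicate 2.

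Leu-CAA, an intron-containing leucine tRNA, was the highest isoacceptor of both methods by its mean, and fell by a small but steady amount, from 15.3%, 16.3% and 14.01% in iCLIP to 12.01%, 10.9999% and 11.6% in FICC-Seq (-0.40 ± 0.08, limma adjusted p = 0.00673). Leucine as a whole held 24.1%, 21.9% and 25.0% against 25.2%, 27.7% and 24.3%, groups that overlapped. Tyr-GTA and Leu-CAA both have introns, and so do Ile-TAT (1.49 ± 0.31, called higher) and Arg-TCT (0.56 ± 0.47, not called), so this group of 4 had 2 rises and 1 fall. Among 9 measured isoacceptors with a long variable arm, those of leucine and serine, 4 rose and 1 fell, against 20 and 9 of all 46.

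**Figure D1:**
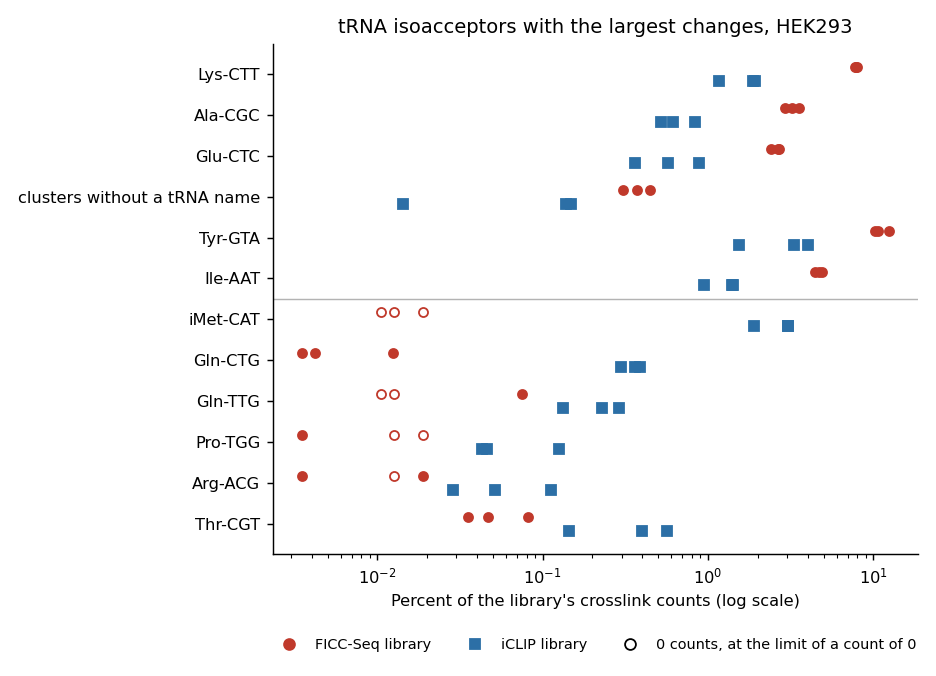
Share of each library held by the 12 isoacceptors with the largest rises (above the line) and falls (below it), on a log axis. Each red circle is 1 of 3 FICC-Seq libraries and each blue square 1 of 3 iCLIP libraries, and open circles are libraries with 0 counts, drawn at the limit of 3 counts. The groups do not overlap in any row, which was a condition for being shown, and iMet-CAT is at 0 in all FICC-Seq libraries.

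**Figure D2:**
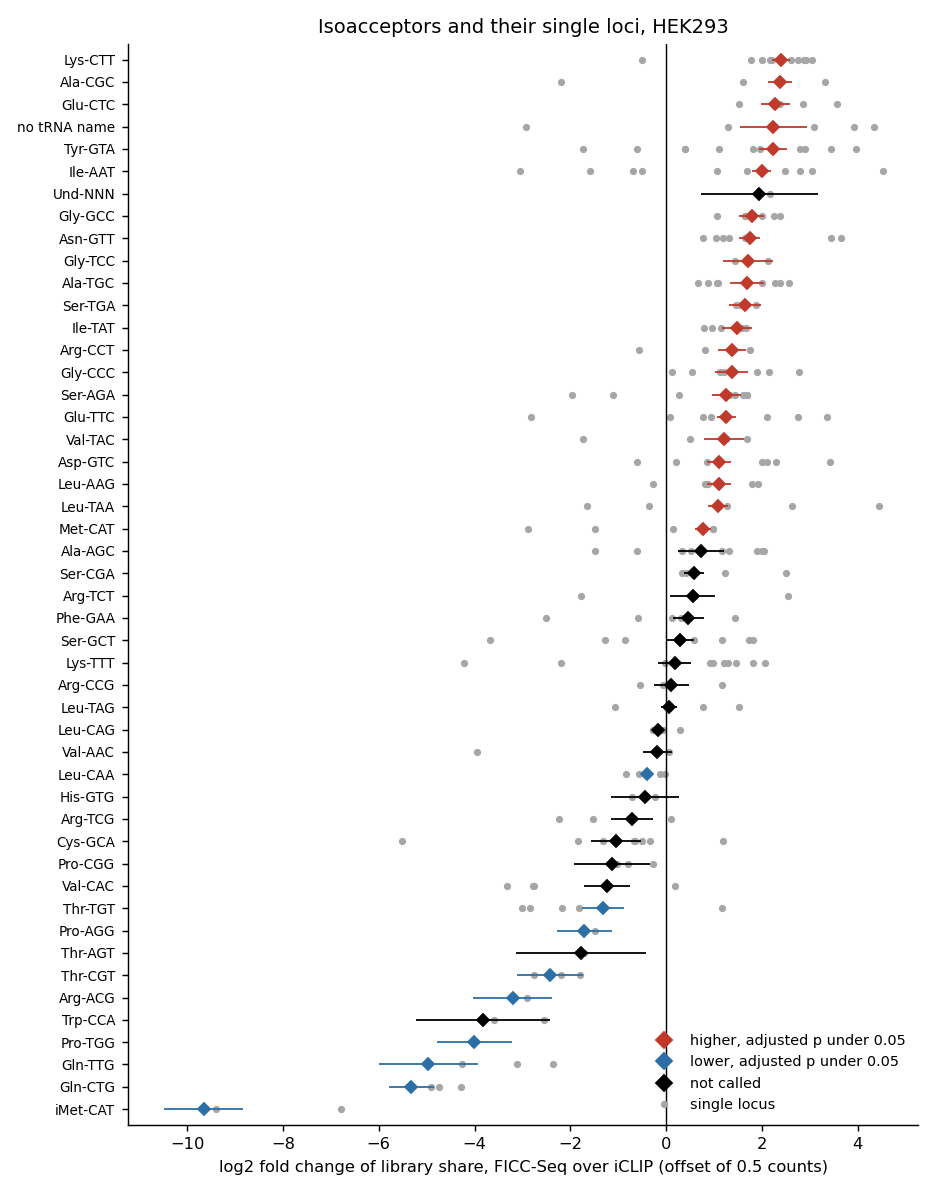
Log2 fold change of the library share, FICC-Seq over iCLIP, for the 48 isoacceptor groups tested (diamonds, bars are 1 SE) and for their single loci (grey points). Red marks 21 groups called higher, 1 of them the clusters without a tRNA name, and blue 9 called lower. The loci of 1 isoacceptor often lie on both sides of 0.

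The split between rises and falls depended on what the counts were scaled to, while the directions of the calls did not. As shares of the tRNA counts alone, 12 of the isoacceptors with an anticodon were higher and 18 lower. With this scaling the median of all 48 groups moved by -0.67 on the log2 scale. All 12 were among the 20 rises by library total, and the 18 included all 9 falls. The 8 rises that lost their call were Met-CAT, Leu-TAA, Leu-AAG, Asp-GTC, Val-TAC, Ser-AGA, Gly-CCC and Gly-TCC. With TMM factors 19 of the 48 groups were higher and 13 lower, and the median moved by -0.33. The part of the calls that were rises was 70% by library total, 59.4% with TMM and 41.9% within tRNA.

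Several low isoacceptors changed their call with FICC-Seq replicate 2 and with the scaling. Trp-CCA, the tryptophan tRNA, had 0, 29 and 0 counts in FICC-Seq and 16, 17 and 12 in iCLIP (-3.83 ± 1.40, limma adjusted p = 0.0572). Without replicate 2 it was called lower (-5.56 ± 0.86, limma adjusted p = 0.0132). Thr-AGT had 0, 25 and 2 against 9, 6 and 4, and passed without replicate 2 (-3.39 ± 0.70, limma adjusted p = 0.0213, against 0.310 with it). Cys-GCA likewise passed without it (limma adjusted p = 0.0490 against 0.147). With all libraries and as shares of the tRNA counts, limma called Trp-CCA (adjusted p = 0.00570), Thr-AGT (0.0391) and Cys-GCA (0.00184) lower as well, and with TMM factors Trp-CCA (0.0457) and Cys-GCA (0.0463).

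Single loci gave the same broad picture with more contrast. Of 248 loci, 232 had at least 10 counts, and 93 of these rose and 36 fell in a second limma fit with the sites, over whose 574 features 30.5% were called higher and 20.2% lower. The median log2 fold change over the 232 loci was 0.95. The loci are those of the listed clusters, so their balance depends on that list too. It also depends on the scaling, as 64 loci were higher and 62 lower as shares of the tRNA counts. Without FICC-Seq replicate 1 or 3, 20 loci were called lower, and 22 without iCLIP replicate 2. Of 42 isoacceptors with over 1 tested locus, 10 had loci called in both directions, among them Ile-AAT, Glu-TTC, Lys-TTT and Ala-CGC.

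tRNA-Leu-CAA-1-2 led both methods, with 798, 474 and 923 counts in FICC-Seq (3.36%, 2.97% and 3.25%) and 794, 389 and 342 in iCLIP (4.55%, 4.87% and 4.88%), a fall of -0.56 ± 0.09. tRNA-Leu-CAA-1-1 fell too (-0.84 ± 0.11), but tRNA-Leu-CAA-2-1 (-0.03 ± 0.13), tRNA-Leu-CAA-3-1 (-0.12 ± 0.12) and tRNA-Leu-CAG-2-2 (-0.27 ± 0.14), the other high loci of iCLIP, did not pass. As shares of the tRNA counts all of these passed as lower, at -0.77, -0.76 and -0.94 for the last 3. tRNA-Met-CAT-6-1 held 3.22%, 2.50% and 2.90% against 1.53%, 1.57% and 1.23% (0.98 ± 0.17), a call that did not pass with TMM (0.44) or within tRNA (0.32).

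tRNA-Tyr-GTA-5-4, the second locus of FICC-Seq, had 644, 479 and 896 counts against 56, 35 and 36 (2.91 ± 0.25). tRNA-Tyr-GTA-7-1 had 307, 163 and 500 against 6, 18 and 11 (3.96 ± 0.69). tRNA-Ile-AAT-3-1 had 93, 71 and 87 against 5, 0 and 3 (4.52 ± 0.80), the largest rise of a locus. tRNA-Leu-TAA-2-1 had 35, 41 and 56 against 1, 0 and 2, a ratio of 20.9 (95% counting interval 7.01 to 102.8). A pair of unnamed clusters on chromosome 8 were the other large rises, at 17.4 times (4.64 to 146) and 15.9 times (4.24 to 134). In the opposite direction, tRNA-iMet-CAT-1-1 (296, 205 and 176 in iCLIP) and tRNA-iMet-CAT-1-5 (36, 39 and 38) had no FICC-Seq count. tRNA-Cys-GCA-2-4 also had none, against 19, 12 and 12 in iCLIP, and was at least 30.1-fold lower. tRNA-Gln-CTG-1-5 had none against 12, 9 and 7 (at least 19.6-fold lower), and tRNA-Gln-CTG-1-4 had 0, 1 and 1 against 27, 9 and 11 (ratio 49.4, interval 12.9 to 420).

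Rises and falls were spread unevenly over the T-loop sequences. These groups were formed after the values were seen, so their counts are a description. Of all 232 tested loci, 40.1% were called higher and 15.5% lower as shares of the library, the scaling used for all counts in this paragraph. The fallen T-arms printed above carry TTCAAAT, or ATCGAAA in the initiator. Of 33 loci with TTCAAAT, from 11 isoacceptors that include both glutamine and all 3 proline isoacceptors, Cys-GCA and Trp-CCA, 27 were tested with limma, and 0 rose (0 also at an unadjusted p under 0.05) and 11 fell, with a median log2 fold change of -1.31. Together they held 1.11%, 1.99% and 1.01% of FICC-Seq and 2.08%, 3.41% and 2.83% of iCLIP. Of 32 loci with TTCGATT, found in tyrosine, glycine, glutamate and aspartate loci, 25 rose and 0 fell (0 at an unadjusted p under 0.05), with a median of 2.12. Those held 18.2%, 18.1% and 19.2% against 3.61%, 6.44% and 6.90%. TTCGAGC, as in Lys-CTT, had 16 rises and 1 fall among 26 tested loci (median 1.66), and TTCGATC, as in Ile-AAT, 14 and 1 among 29 (median 1.17). TTCGAAT, held mostly by leucine and serine loci, had 16 rises and 7 falls among 46, with a median of 0.28. Other loops that begin like the loop of the glutamine tRNAs had both rises and falls. The loop TTCAATT, held by tRNA-Tyr-GTA-7-1, had 3 rises and 1 fall among 7 loci. The alanine and phenylalanine loop TTCAATC had 4 rises and 1 fall among 10 loci, and the loop TTCAAGT of Lys-TTT had 3 and 2 among 11. Some loops that begin with TTCG also fell or moved both ways. TTCGAAA had 0 rises and 2 falls among 3 tested loci (median -3.32) and TTCGAAC 4 and 3 among 9 (median -1.48). TTCGAGT had 2 and 1 among 11, TTCGACT 2 and 1 among 5, and the 1 TTCGACC locus fell. Loci of 1 group share tRNA sequence and are not independent.

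The methods also differed in where along the tRNA the counts lay. Position 53 held 46.8%, 42.3% and 52.98% of the placed tRNA counts in FICC-Seq and 4.78%, 6.45% and 2.88% in iCLIP. Position 54 held 23.6%, 23.0% and 23.0% against 19.2%, 17.995% and 8.92%. Position 58 held 19.5%, 18.8% and 15.9% against 32.3%, 27.8% and 19.1%. Positions 53 and 54 separated all libraries by method, 54 narrowly, whereas at 58 the lowest iCLIP library (19.1%) lay below the highest FICC-Seq library (19.5%). Counts at positions 61 and 48 were largely those of iCLIP, with 9.69%, 10.1% and 8.66% at 61 against 0.221%, 0.0442% and 0.0942% in FICC-Seq, and 4.07%, 8.55% and 8.61% at 48 against 0.0103%, 0.221% and 0.0128%. Of 185 loci with at least 10 FICC-Seq counts, 135 had their highest position at 53, 19 at 54 and 31 at 58. Of 183 such loci in iCLIP, 113 had it at 58, 36 at 54, 13 at 53 and 8 at 48.

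Within isoacceptors, the shift to positions 53 and 54 was general among those with counts in every library. The test took isoacceptors with at least 30 placed counts and at least 1 in each library. iMet-CAT, Gln-TTG, Trp-CCA and Thr-AGT had a FICC-Seq library without counts and were left out. All 38 that remained had a higher mean share at 53 and 54 in FICC-Seq. Every FICC-Seq library lay above every iCLIP library in 36, and limma on the log2 odds called 30 (78.9%) higher. None had a lower mean. Lys-TTT, the other lysine isoacceptor, moved most among those called, from 16.1%, 24.5% and 7.34% of its iCLIP counts to 91.6%, 86.7% and 93.6% of its FICC-Seq counts (log2 odds difference 5.46 ± 0.59), although its share of the library did not pass the test (0.18 ± 0.35). Gly-CCC (4.27 ± 0.77), Asp-GTC (4.26 ± 0.52) and Arg-TCG (4.19 ± 0.83) followed. Gln-CTG had the largest difference (5.60 ± 2.44), on 1, 2 and 1 FICC-Seq counts, and did not pass. The smallest differences were those of Pro-CGG (0.59 ± 1.55), Ser-TGA (1.20 ± 0.73), Ser-AGA (1.28 ± 0.58), Val-CAC (1.57 ± 0.76) and Leu-TAA (1.73 ± 0.31), of which only Leu-TAA was called. Ser-AGA reached 41.3%, 35.4% and 40.1% at these positions in FICC-Seq, against 25%, 10.8% and 20% in iCLIP.

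At position 58, 11 of the 38 isoacceptors (28.9%) fell in FICC-Seq and 0 rose (0 also at an unadjusted p under 0.05 in limma). Lys-TTT went from 27.7%, 26.4% and 28.4% in iCLIP to 1.99%, 3.54% and 1.78% (-3.81 ± 0.55), Gly-CCC from 53.8%, 53.7% and 45.5% to 10.0%, 17.4% and 8.25% (-2.96 ± 0.54), and Asp-GTC (-2.85 ± 0.65) and Tyr-GTA (-2.44 ± 0.40) also fell. The libraries of the methods do not overlap in any of these 4. Gln-CTG had a difference of -2.46 ± 2.08, not called. At the other end were Ala-CGC (0.53 ± 0.61), Leu-CAG (0.49 ± 0.26), Leu-TAA (0.29 ± 0.41), Ser-TGA (0.02 ± 0.66) and Ser-AGA (-0.04 ± 0.46). None of these passed. The serine tRNAs Ser-TGA and Ser-AGA kept much of their FICC-Seq counts at position 58, between 38.9% and 58.4%. Shares at 53 and 54 and at 58 are parts of 1 total, so a rise in one lowers the other. The number of falls at 58 was 3 without iCLIP replicate 1, when Asp-GTC lost its limma call (adjusted p = 0.0567) and Leu-CAG was called higher (1.09, adjusted p = 0.0267), and 6 without FICC-Seq replicate 3 or without iCLIP replicate 2.

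Outside the tRNA clusters, abundant short RNAs and a histone mRNA lost almost all of their counts in FICC-Seq. Introns and other exons as a whole also held less of FICC-Seq, while the sites in them that had enough counts to test moved both ways. Intron counts were 3.82%, 2.76% and 4.19% of the FICC-Seq libraries and 14.1%, 9.43% and 12.7% of the iCLIP libraries. Those in other exons were 0.805%, 0.501% and 0.704% against 3.41%, 4.19% and 9.98%, and neither class overlapped between methods. Positions with no gene on the strand held 9.81%, 7.502% and 9.67% against 29.5%, 14.5% and 9.18%, which overlap. Positions within 30 nt were joined into 9470 sites, and 342 had at least 10 counts. Of these 79 rose and 78 fell, against 25.6% and 22.3% of all isoacceptors and sites. By class, 6 of 8 tested Y RNA sites, 5 of 6 rRNA sites, 4 of 4 snRNA sites, 3 of 3 vault RNA sites and 2 of 2 mitochondrial sites fell, and 0 rose (0 at an unadjusted p under 0.05 in limma). These classes had almost no FICC-Seq counts, so their sites reached 10 counts mostly through iCLIP. A rise could hardly be called there, and the numbers of falls are a description. Of 83 intron sites 25 rose and 6 fell, of 182 with no gene on the strand 42 rose and 32 fell, and of 15 in other exons 5 rose and 3 fell. None of 12 snoRNA sites could be tested. The count filter was applied again with each library left out, so fewer sites were tested. Without iCLIP replicate 1, 32 of 210 tested sites were called lower. The numbers were 46 of 290 without FICC-Seq replicate 1, 49 of 315 without FICC-Seq replicate 2 and 35 of 281 without FICC-Seq replicate 3. Called higher were 42 of 290 without FICC-Seq replicate 1 and 37 of 281 without FICC-Seq replicate 3. As shares of the counts outside tRNA, 115 sites were higher and 71 lower, with the median of all sites 1.13 higher on the log2 scale. Rises then made up 61.8% of the calls, against 50.3%. With an offset that was not scaled to the library, chosen after seeing the data, 48 sites were higher and 130 lower.

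**Figure D3:**
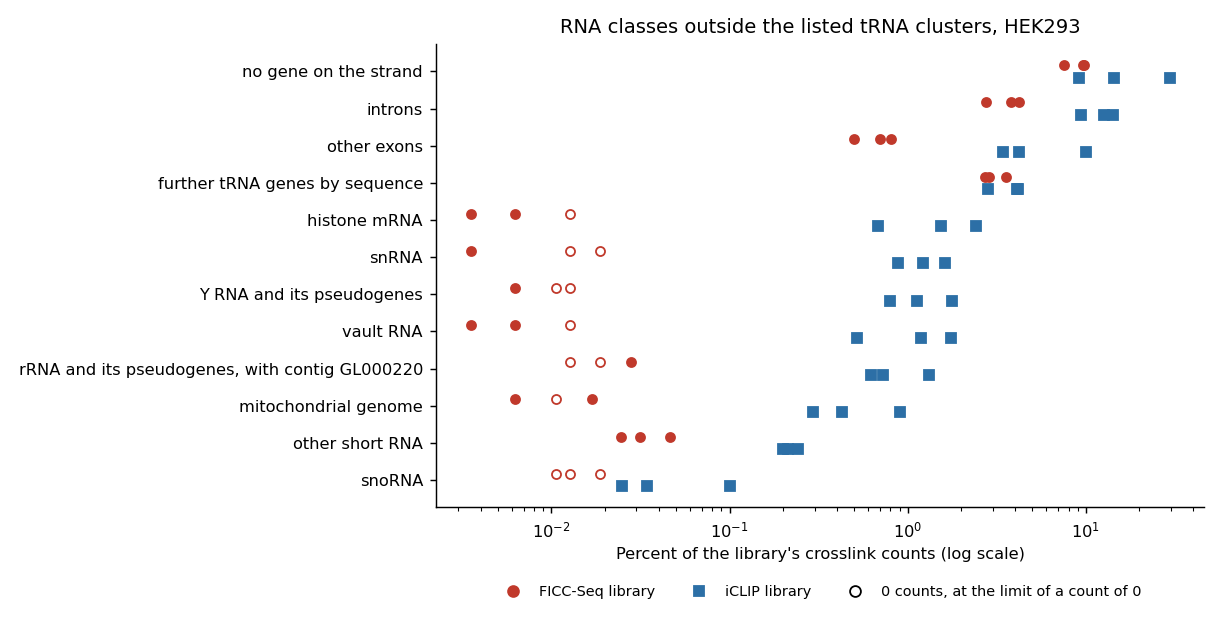
Share of each library held by RNA classes outside the listed tRNA clusters, on a log axis, ordered by the mean of iCLIP. Red circles are FICC-Seq libraries, blue squares iCLIP libraries, and open circles libraries with 0 counts, drawn at the limit of 3 counts. Histone mRNA, snRNA, Y RNA, vault RNA and rRNA lie between 0.516% and 2.43% of every iCLIP library and at or below 0.0281% of every FICC-Seq library.

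The class of small nuclear RNAs, the RNAs of the spliceosome, had 0, 0 and 1 counts in FICC-Seq and 154, 97 and 113 in iCLIP. Its highest site was RNU2-2P, a U2 gene (chr11:62609160, minus strand), with 0, 0 and 1 against 33, 28 and 53 (ratio 240, interval 42.1 to 9544). Y RNAs and their pseudogenes had 0, 1 and 0 against 308, 90 and 56. The 6 sites that passed are annotated only with the family name Y_RNA, and the named RNY genes, with 0, 1 and 0 counts against 3, 0 and 2, were not tested. The unplaced contig GL000220, which carries ribosomal RNA, had a site at 118320 with 0, 0 and 1 against 36, 28 and 46 (ratio 231, interval 40.6 to 9212). Of the 5S rRNA copies 3 of 4 tested fell, and U6 had 1 of 1, all of them tested for their iCLIP counts alone. In the sums of each of these classes every iCLIP library was above every FICC-Seq library. RN7SK, RN7SL and RMRP were too low to test and RPPH1 had no count.

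Vault RNAs, the short RNAs of the vault particle, fell at VTRNA1-1 (0, 0 and 0 against 48, 29 and 48, at least 87.6-fold), at VTRNA1-2 (0, 1 and 1 against 39, 62 and 65, ratio 174, interval 47.5 to 1452) and at VTRNA1-3 (0, 0 and 0 against 3, 4 and 9), and VTRNA2-1 had no count. HIST1H4B, which codes for histone H4, had 0, 1 and 1 against 109, 109 and 156 (ratio 393, interval 108 to 3257), the largest fall of a site outside tRNA. The histone list held little else, as 17 genes had iCLIP counts and 1 had FICC-Seq counts. Without HIST1H4B its sum was 0, 0 and 0 against 10, 13 and 13.

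Genes with the shape of a tRNA but outside the listed clusters fell at most tested sites with A54 and moved both ways with T54, as the listed ones did. They were found by sequence at 154 sites, of which 36 were tested. With A54, 25 sites together had 1, 1 and 2 counts in FICC-Seq and 197, 130 and 141 in iCLIP, and 9 of 10 tested sites fell. The A54 sites were tested almost only for their iCLIP counts, so a rise could hardly be called there. With T54, 6 of 26 rose and 7 fell (median log2 fold change -0.44), and the sum was 682, 567 and 772 against 298, 202 and 146. Of all 342 tested sites, 23.1% were called higher and 22.8% lower. The highest A54 sites had the same T-arm as the initiator printed above:
tRNA gene, chr17:80452605-80452621 (-): gatggATCGAAAccatc
tRNA gene, chr6:27560608-27560624 (-): gatggATCGAAAccatc
The first had 0, 0 and 0 counts against 48, 34 and 24 (at least 74.3-fold lower in FICC-Seq) and the second 0, 0 and 0 against 46, 29 and 20 (at least 66.5-fold). Another A54 site, chr6:26286810 on the plus strand, had 0, 1 and 0 against 40, 26 and 21 (ratio 183, interval 32.0 to 7303). Among the T54 genes were the highest FICC-Seq sites outside the listed clusters. The site at chr1:161493657 on the minus strand, with the 3′ end of a Gly-GCC tRNA, had 200, 138 and 195 counts against 38, 19 and 15 (1.80 ± 0.29). The site at chr12:98897332 on the plus strand, close to Asp-GTC, had 133, 63 and 187 against 21, 14 and 15 (1.78 ± 0.40). At chr17:8124917 on the plus strand (Gly-TCC) the values were 76, 79 and 60 against 21, 20 and 13, a difference that did not pass (0.87 ± 0.49) except as a share of the counts outside tRNA (2.42).

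Many of the tested sites, risen or not, were narrow and lay just before a stretch that reads like the end of a tRNA, and fallen sites seldom did. Of 73 risen sites not on a tRNA gene, 65 were at most 5 nt wide, as were 31 of 60 fallen sites and 219 of all 304. The 18 bases after each site were compared with every run of 18 bases in the 3′ ends of the listed tRNAs. The best match was kept. It had at most 3 mismatches at 40 of 73 risen sites (54.8%) and 5 of 60 fallen sites (8.33%). The same held at 112 of 171 sites that were not called (65.5%), which makes 157 of all 304 (51.6%). The match placed the site at position 53 or 54 in 36 of the 40 risen sites and in 30 of the 112, and at 58 in 4 and 82 of them. None of the fallen sites matched at 53 or 54, and 5 did at 58. In a window 60 nt upstream 0 of 304 sites matched. Whether such sites hold reads from tRNAs themselves was not tested. Examples of risen sites are shown with the tRNA they match, with positions 54 to 60 in capitals:
site at chr5:51600846-51600863 (-): TTCGAGCcccacgttggg
tRNA-Lys-CTT-1-1, chr14:58706615-58706632 (-): TTCGAGCcccacgttggg
site at chr21:46126553-46126570 (-): CTCGATCcccgacacctc
tRNA-Ala-TGC-5-1, chr6:28785014-28785031 (-): TTCGATCcccgacacctc
The first pair has 0 mismatches and the second 1. The site on chromosome 5 (peak at 51600864) has no gene on its strand and had 63, 13 and 76 counts in FICC-Seq against 0, 0 and 1 (ratio 72.3, interval 12.8 to 2875). The site on chromosome 21 (peak at 46126571) lies in an intron of TSPEAR and had 20, 13 and 24 against 0, 0 and 0 (at least 9.04-fold higher).

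The remaining large rises had FICC-Seq counts in every library and at most 2 in the iCLIP libraries together. The site at chr22:24135230 on the minus strand, with no gene on its strand, had 62, 32 and 101 against 0, 0 and 2 (ratio 46.4, interval 12.7 to 386). At chr19:19852257 on the plus strand, a tRNA-like gene with T54, the counts were 44, 21 and 36 against 1, 0 and 0 (ratio 48.1, interval 8.43 to 1917). A site in the coding sequence of ZNF512B, a zinc finger protein (chr20:62597677, minus strand), had 45, 13 and 45 against 0, 2 and 0 (ratio 24.5, interval 6.61 to 205). Sites without a gene at chr13:47557749 (plus strand, 32, 9 and 26), chr5:178157504 (plus strand, 23, 4 and 35) and chrX:46354971 (minus strand, 16, 7 and 26) had no iCLIP count and were at least 10.6, 9.83 and 7.77 times higher. All 6 of these sites were named on the condition that the methods do not overlap. The site at chr2:34902758 (minus strand), 1 mismatch from the end of Glu-CTC, had 98, 46 and 76 against 6, 2 and 1 (3.63 ± 0.47). A pair of other high sites did not pass, namely chr1:228308859 (plus strand, 97, 41 and 94 against 161, 27 and 12) and chr6:119045617 (minus strand, 51, 37 and 55 against 146, 36 and 13), where iCLIP replicate 1 stood far above the other iCLIP libraries. The second was called lower by limma without iCLIP replicate 3 (-1.61, adjusted p = 0.0134).

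At the clusters that the study lists as other than tRNA, a smaller part of the tested sites was called than among all features. That list was drawn up on libraries of this series, so its counts are not independent evidence of a direction. The study lists 70 such clusters, and 68 sites overlapped them. Of these sites 51 had enough counts, and 7 rose, 3 fell and 41 were not called. Among all 390 isoacceptors and sites 25.6% were called higher and 22.3% lower. Of 23 tested mRNA sites 3 rose and 0 fell (0 at an unadjusted p under 0.05 in limma), and of 9 sites of noncoding RNA 2 rose and 1 fell. Of 8 LINE sites 1 rose and 0 fell (1 at an unadjusted p under 0.05 in limma), and of 7 SINE sites 1 rose and 1 fell. The single rRNA site fell, and neither the 2 LTR sites nor the 1 DNA transposon site was called. Summed, they held 1.91%, 1.53% and 2.10% of the FICC-Seq libraries and 4.796%, 3.11% and 1.84% of the iCLIP libraries, which overlap.

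The same contrast was available in HAP1, a near-haploid human cell line, and the difference between the cell lines was tested as an interaction. Of the 48 isoacceptor groups 0 had a method difference that differed between HEK293 and HAP1 (limma adjusted p under 0.05), with 7 at an unadjusted p under 0.05, against 17 of 342 sites. Over both kinds of feature 4.36% were called. Sites entered this test for their HEK293 counts, and 8 of the 17 had no count in any HAP1 library, 5 had 1 to 9 and 4 had 10 or more. Where HAP1 has no or few counts the call restates the HEK293 difference and says nothing of the method difference in HAP1. The number of sites called was 3 without FICC-Seq replicate 1 and 46 without iCLIP replicate 3. With 3 libraries a group, a difference that did not pass is not shown to be absent.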

How the data were processed

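FICC-Seq and iCLIP libraries of TRMT2A were analysed from the deposited per-position cDNA counts. According to the labels and methods, the authors mapped reads with bowtie to hg19 through the iCount server, kept unique hits and collapsed reads by random barcode. The deposited value at a position is a signed count, with the sign giving the strand. Its size was used, and each library was scaled to its total.

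Counts within 100 nt of a listed tRNA cluster on its strand went to that locus, and other positions within 30 nt were joined into sites. Loci were placed on tRNA positions from the GRCh37 sequence, and sites annotated with GENCODE 44 lifted to GRCh37. Features with 10 or more counts over the 6 libraries were fitted in limma 3.58.1 (R 4.3.3) with voom weights and an offset of 0.5 counts scaled to the library, and p-values were adjusted by the Benjamini-Hochberg method. A count model had been planned. As the deposited counts carry a sign for the strand, they were not declared as counts, and limma on weighted log2 values was used in place of that model. Position shares were fitted as log2 odds with precision weights, and library shares by an exact permutation test. Tables were handled in Python 3.11.15 with pandas 2.3.3, sequence was read with pysam 0.24.0, the permutation test was that of scipy 1.17.1 on numpy 2.4.6, and plots were drawn with matplotlib 3.10.9. Tested on simulated data, the isoacceptor and site fit found 83.3% of 8-fold and 76.6% of 4-fold changes, with 0.385% false calls. The locus and site fit gave 79.2%, 44.4% and 0.228%. These are parts of the 355 of 390 and 531 of 574 simulated features that passed the count filter. The simulated counts had the same dispersion in every feature and no library that stood apart, so these rates may not hold for the data.

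Names follow a rule: the 6 isoacceptors, 5 loci and 8 sites with the largest called rises and falls without overlap between methods, the 5 loci and 5 sites with the highest counts in each method, and the 5 largest and 5 smallest position differences. Other names were chosen after their values were seen. Members and lists were chosen with earlier results of these data known. Totals of 7002 to 28429 counts set the precision, and intervals and limits cover counting error only. Alternatives covered scaling, filters, offsets, windows and each library left out.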

Additional observations from a re-analysis of the deposited data

Results flagged for a closer look

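At 17 of 342 sites the FICC-Seq to iCLIP difference differed between HEK293 and HAP1 (limma interaction, adjusted p under 0.05), 9 with a larger and 8 with a smaller value in HEK293. Sites had been selected for their HEK293 counts, and 8 of the 17 had no count in any HAP1 library, so that no HAP1 difference exists to compare there. Only 4 had 10 or more HAP1 counts. In log2 fold change, chr14:93071734 (minus strand) was 1.37 in HAP1 and -1.65 in HEK293, and chr17:44067301 (plus strand) 3.69 and -0.79. The others were chr7:5401777 (plus strand, -1.38 and 2.65) and chr8:126999919 (minus strand, -1.13 and 3.59). Among the 17, a pair with fewer HAP1 counts are sites named above. At chr13:47557749 (plus strand) the difference was larger in HEK293 by 4.945 on the log2 scale (limma adjusted p = 0.0361), and HAP1 had 0, 2 and 4 counts in FICC-Seq and 0, 2 and 0 in iCLIP. At chr5:178157504 (plus strand) it was larger by 4.571 (limma adjusted p = 0.0162), and HAP1 had 0, 0 and 1 counts in FICC-Seq and 0, 0 and 0 in iCLIP. Neither site has enough HAP1 counts to give a method difference in that line. With TMM factors 7 sites were called.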

How the results depend on the processing

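Directions of the called isoacceptors, loci and sites that are named were kept under every alternative run. As shares of the tRNA counts, 13 isoacceptor groups were higher and 18 lower, and 64 loci higher and 62 lower. TMM gave 60 loci higher and 55 lower, and 7 sites in the interaction. Sites higher and lower were 33 and 29 with a minimum of 30 counts, 48 and 130 with an offset not scaled to the library (chosen after seeing the data, as was the log2 CPM fit) and 27 and 48 thinned to the smallest total. Sites called lower were 156 with no minimum and 31 without single-count positions. With each library left out, 37 to 78 sites were higher and 32 to 112 lower, of 210 to 317 tested. Leaving out each library gave 16 to 20 isoacceptor groups higher and 4 to 11 lower, and 63 to 85 loci higher and 20 to 40 lower. It gave 24 to 30 isoacceptors higher at positions 53 and 54, 0 to 1 higher and 3 to 15 lower at 58, and 0 to 2 isoacceptors and 3 to 46 sites in the interaction. The tRNA share difference ranged from 25.5 to 33.6 points and that of the 10 highest loci from -18.8 to -13.2. Some values that were not called changed sign. As a share outside tRNA, chr1:228308859 was 1.10 and chr6:119045617 was 0.38. tRNA-Leu-CAA-2-1 was 0.091 with barcode collisions corrected and 0.065 with a 50 nt window. With position 53 taken from HAP1, the share at 58 was -0.66 for Ser-TGA and -0.67 for Ala-CGC. Without single libraries, chr1:228308859 ranged from -0.88 to 0.45, locus tRNA-Leu-CAA-2-1 from -0.221 to 0.054, locus tRNA-Leu-CAA-3-1 from -0.187 to 0.020, Ser-AGA at 58 from -0.60 to 0.23 and Ser-TGA at 58 from -0.33 to 0.48. The cause was not tested. After the mean of each method was taken out of the log2 values, same-numbered libraries correlated at 0.15, 0.07 and -0.05. The other pairs lay between -0.15 and 0.11. With 3 libraries a method, such values cannot decide whether the numbers pair the libraries. With the replicate number as a block, isoacceptor groups were 21 higher and 10 lower, sites 75 and 89, loci 96 and 38, positions 53 and 54 28 and 0, position 58 0 and 15, and the differences 29.9 and -16.9 points. The planned second count tool was not run. Bounds on falls rest on the 68132 FICC-Seq counts and bounds on rises on the 32421 iCLIP counts.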

Other observations

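The isoacceptors in which FICC-Seq replicate 2 stood apart in HEK293 showed a like pattern in HAP1, where the labels give replicate 2 the same 5′ barcode as in HEK293. In HAP1 FICC-Seq, Trp-CCA had 1, 78 and 0 counts in replicates 1 to 3, Gln-TTG 0, 32 and 4, Thr-AGT 3, 63 and 10, and Arg-ACG 0, 5 and 0. The HAP1 iCLIP libraries had 12, 12 and 12 for Trp-CCA, 15, 24 and 14 for Gln-TTG, 17, 16 and 9 for Thr-AGT, and 4, 9 and 5 for Arg-ACG. These isoacceptors were picked for the HEK293 values, and the part of the barcode in them was not tested.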
